A study of Danio rerio with 48 samples.

Results

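The 20 genes described here were those whose mean level in zebrafish embryos was higher in the blastula, at 3.25 or 4.25 hours post fertilisation (hpf), than at 2.25 hpf, and lower again at 5.25 hpf. They were found among 32520 gene IDs from the levels themselves. The level was given in CPM, the count of a gene per 1000000 counts of the embryo, with the ID ENSDARG00000080337 left out of the total. Members were chosen by these stage means over all 12 embryos of a stage. A gene was kept when the larger of its means at 3.25 and 4.25 hpf was at least 3 CPM and at least 2 times the mean at 2.25 hpf plus 0.5, and when the mean at 5.25 hpf was at most 60.0% of that peak. The peak lay at 3.25 hpf in 9 genes and at 4.25 hpf in 11. The rule also left out 8 IDs by name, of which 0 met the rest of it. Of all other IDs, 11128 reached 3 CPM, 351 of those also met the rise, and 20 of those also met the fall. Rise and fall are therefore the choice and are given as a description without a test. The name "transient transcripts of the blastula" held in most embryos for some of the set only: 6 genes reached 3 CPM in at least 9 of the 12 embryos of the peak stage, 8 did so in at most 4 of 12, and 4 drew more than 50% of the summed CPM of the peak stage from 1 embryo.

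The data are counts of RNA 3′ ends from 48 single whole embryos, made with CEL-seq2, in which each sample is barcoded, pooled with others and amplified linearly before sequencing. The embryos belonged to AB and TL, both laboratory strains, and to 4 stages 1 hour apart, from 2.25 to 5.25 hpf. They were spawned naturally and kept at 28.5 °C, with no treatment named in the labels. Each of the 8 groups of strain and stage held 6 embryos, with numbers 1 to 3 in biological replicate 1 and 4 to 6 in the other. The title of the series concerns an early cell population and left-right defects, and the design sets the strains side by side at each stage. An embryo number names a different embryo at each stage. TL fish are known to carry mutations that affect fin length and pigment pattern, though the labels name no allele.

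Total counts ran from 4931012 to 20036495 per embryo (median 9853532), of which ENSDARG00000080337, an ID without a symbol, took 11.3 to 60.5%. Without it, 1 count was worth 0.0781 to 0.305 CPM. Library indices differed by stage and sequencing runs by biological replicate, per the labels, so a stage and its library pool cannot be told apart, nor can a biological replicate and its runs. In whole embryos, fewer cells of a type and less RNA per cell cannot be told apart either. The labels do not say whether the embryos of a replicate came from separate pairs of fish, so the p-values measure the spread between these embryos.

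The first cell cycles of the zebrafish run on RNA and protein that the mother placed in the egg. During the blastula the embryo's own genome becomes active and many maternal RNAs are destroyed, a handover called the maternal-to-zygotic transition. Genes of the miR-430 family are among the first to be transcribed, and the microRNAs they encode speed the removal of maternal messages. Other early zygotic products are transcription factors, such as homeobox and basic helix-loop-helix proteins, that begin to divide the embryo into germ layers and regions.

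Among regulators, the microRNA gene dre-mir-430b-6 was the only one of the 20 to meet the rule under each of the 7 other ways of applying it that were tried. At 2.25 hpf it lay between 0 and 0.618 CPM, with 9 counts in 12 embryos. At 3.25 hpf the AB embryos held 11.5, 9.31, 7.35, 5.67, 7.50 and 3.94 CPM and the TL embryos 6.28, 5.57, 2.28, 8.87, 2.27 and 7.55 CPM. Every embryo of that stage was thus above every embryo of 2.25 hpf, and the strains overlapped. The means then fell to 2.73 CPM at 4.25 hpf and 1.21 CPM at 5.25 hpf. At 4.25 hpf AB ran from 0.840 to 6.11 CPM and TL from 1.20 to 2.62 CPM, a log2 difference of -1.13 (TL minus AB, SE 0.44) that missed the threshold in edgeR's quasi-likelihood test (adjusted p 0.0833). Within replicate 1 alone it was called (-1.82, adjusted p 0.0246) and within replicate 2 alone it was not (-0.40, adjusted p 0.788).

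The tables hold 55 IDs named for miR-430, and 45 of them had 0 counts in all 48 embryos. The copies are nearly identical, so reads could have been placed on another copy, and the method captures polyadenylated RNA and not the mature microRNA. Another copy, dre-mir-430a-13, had a time course of the same shape. It had 1, 153, 80 and 28 counts summed over the 12 embryos of the 4 stages in order, beside 9, 539, 191 and 74 for dre-mir-430b-6. For dre-mir-430b-17 the sums were 2, 149, 163 and 108 counts, highest at 4.25 hpf and with less of a fall. Neither reached the 3 CPM of the rule.

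VSX1, a homeobox transcription factor that in zebrafish acts in the early axial mesoderm, had means of 1.39, 4.26, 5.39 and 1.07 CPM at the 4 stages. In AB at 4.25 hpf the embryos held 12.4, 6.68, 2.90, 3.53, 14.3 and 5.64 CPM and the TL embryos 0.778, 1.55, 8.16, 1.42, 6.62 and 0.743 CPM. AB was the higher strain on average and the ranges overlapped. The difference of -1.27 (log2, SE 0.62) was not called (edgeR quasi-likelihood test, adjusted p 0.166). At 5.25 hpf no embryo exceeded 2.74 CPM.

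The caudal-type homeobox gene cdx4, which acts in the posterior body and in blood formation, was the one member on the gene lists of early development, where it stands under Wnt. Its means were 0.979, 1.34, 3.23 and 1.45 CPM, so it passed the level threshold by little. At 4.25 hpf the embryos ran from 1.61 to 5.17 CPM in AB and from 1.78 to 6.18 CPM in TL, and the strains overlapped. The proneural basic helix-loop-helix gene ascl1a had 0.226, 0.453, 4.84 and 2.67 CPM. Its AB embryos of 4.25 hpf held 1.64, 1.61, 0.660, 15.8, 3.31 and 2.16 CPM and its TL embryos 2.85, 12.4, 4.08, 1.81, 6.46 and 5.35 CPM. A single embryo in each strain, AB embryo 4 and TL embryo 2, stood well above its group. The strain difference of ascl1a at that stage, 0.42 (log2, TL minus AB, SE 0.65), was not called (edgeR quasi-likelihood test, adjusted p 0.703). Within replicate 1 alone it was called (2.33, adjusted p 0.02025). Within replicate 2 alone it had the opposite sign and was not called (-0.59, adjusted p 0.698).

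The set was compared with lists of known early regulators. Of 337 symbols on 19 lists (signalling pathways, transcription factor families and cell type markers), 249 matched a single ID. Of those, 58 met the rise part of the rule, and 1 of the 58, cdx4, also met the fall. Over all 32520 IDs, 351 met the level and the rise, and 20 of the 351 also met the fall. The IDs that the rule left out by name are in neither count of genes that rose. With 1 listed gene in the set, neither a shortage nor an excess of such genes is read from this. For the 248 listed genes outside the set, 217 could be tested between stages, where a call needed an adjusted p under 0.05 in edgeR's quasi-likelihood test and an absolute log2 fold change of at least 1. From 2.25 to 3.25 hpf 27 rose and 1 fell, from 3.25 to 4.25 hpf 75 rose and 3 fell, and from 4.25 to 5.25 hpf 77 rose and 15 fell. Over all 14470 genes tested, the share that rose was 0.767%, 4.42% and 7.35% in these steps, and the share that fell 0.0346%, 0.809% and 6.79%. On the Wnt list 13 genes other than cdx4 were tested. From 3.25 to 4.25 hpf 5 rose and 0 fell, and from 4.25 to 5.25 hpf 3 rose and 1, ZNRF3, which codes for a ubiquitin ligase that removes Wnt receptors, fell by 1.88 on the log2 scale. Markers of the enveloping layer, the outer cell sheet of the embryo, rose in 12 of 19 tested genes from 3.25 to 4.25 hpf and in 14 of 19 from 4.25 to 5.25 hpf.

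Among genes without a known role here, 4 were above 3 CPM in nearly all embryos of 4.25 hpf. The gene si:dkeyp-87d1.1 had 0 counts in the 12 embryos of 2.25 hpf, which allows up to 0.0354 CPM (counting error only). Its means were then 1.62, 20.5 and 10.5 CPM. At 4.25 hpf the AB embryos held 14.6, 35.0, 40.5, 27.9, 23.5 and 13.4 CPM and the TL embryos 6.22, 18.5, 6.0, 29.6, 14.5 and 16.8 CPM. No embryo of that stage lay below 6.0 CPM and none of 3.25 hpf above 5.82 CPM. At 5.25 hpf the TL embryos of replicate 1 held only 0.936 to 1.37 CPM while those of replicate 2 held 9.39 to 16.3 CPM. Across both strains that replicate difference was 1.51 (log2, SE 0.61) and was not called (edgeR quasi-likelihood test, adjusted p 0.121). It was called by DESeq2 (1.60, adjusted p 0.0248) and by edgeR in TL alone (3.45, adjusted p 0.00543). In the fit of TL alone the gene could pass the filter on low counts through replicate 2 alone, where it was high. At 3.25 hpf the replicate difference had the opposite sign, called by DESeq2 (-2.36, adjusted p 0.023) and not by edgeR (-2.31, adjusted p 0.108). Between strains edgeR called the gene within replicate 1 alone at 4.25 hpf (-1.55, adjusted p 0.0164) and 5.25 hpf (-3.43, adjusted p 0.00229). In the latter fit it could pass the filter through AB alone, where it was high. Within replicate 2 alone edgeR did not call the gene at these 2 stages (-0.07, adjusted p 0.936, and 0.06, adjusted p 0.969).

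The gene si:dkey-235h8.1 had 1 count at 2.25 hpf over 12 embryos and means of 0.425, 12.1 and 7.05 CPM later. At 4.25 hpf its TL embryos lay close together, between 11.4 and 16.3 CPM, inside the AB range of 4.88 to 17.8 CPM. ENSDARG00000117210, an ID without a symbol, had means of 0.933, 1.73, 5.50 and 2.90 CPM. Its 4.25 hpf embryos lay between 1.02 and 9.72 CPM, and 11 of the 12 were above 3 CPM.

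The gene si:dkey-21a6.5 differed from the others in that it was well expressed from the start. Its means were 30.3, 30.6, 62.9 and 36.7 CPM, so it entered the set just inside both the rise threshold (2.04 times) and the fall threshold (58.4% of the peak). In the AB embryos of 4.25 hpf it stood at 75.6, 63.8, 92.6, 68.6, 75.2 and 81.3 CPM and in the TL embryos at 64.2, 58.9, 49.2, 45.5, 27.5 and 52.0 CPM. Only TL embryo 1 reached the AB range, just above AB embryo 2.

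**Figure D1:**
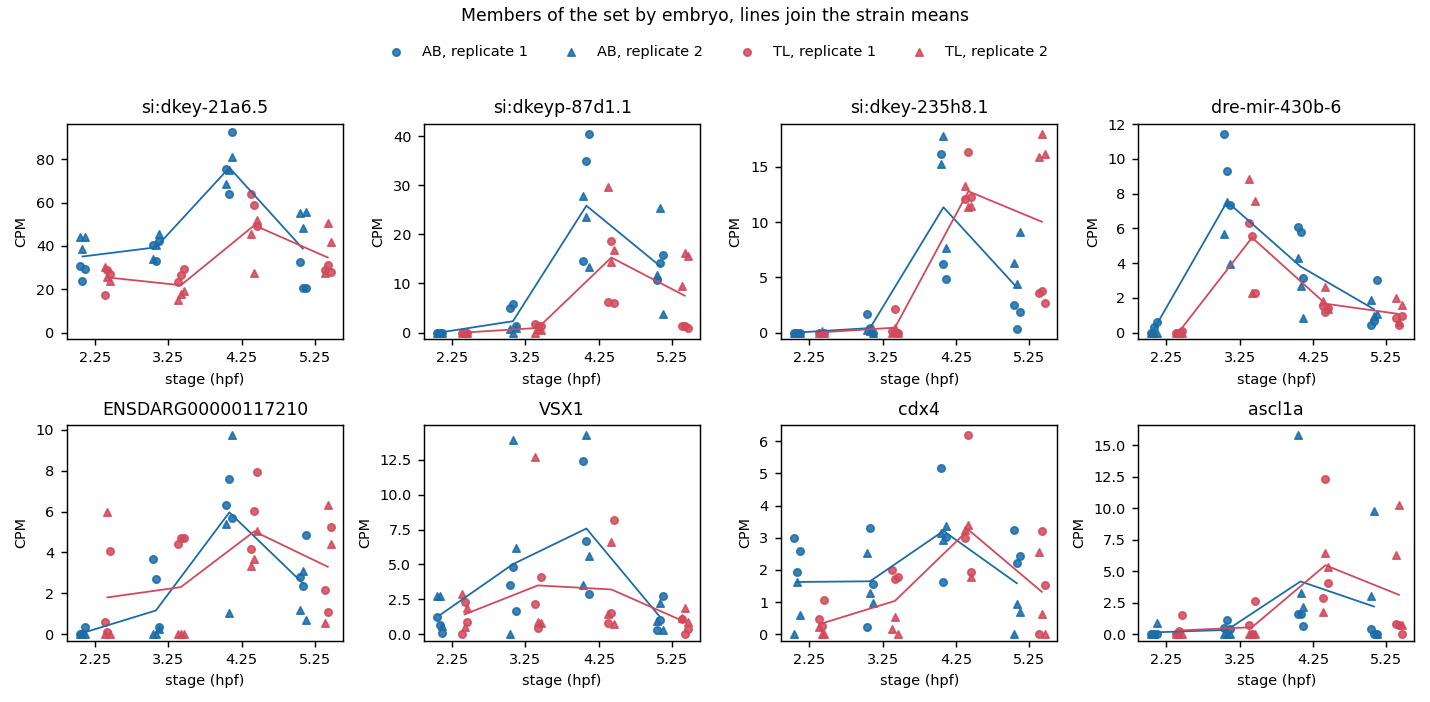
CPM (y axis) of 8 members in every embryo by stage (x axis, hpf), AB and TL in separate colours, each point 1 embryo. Levels of dre-mir-430b-6 peak at 3.25 hpf (mean 6.5 CPM) and those of si:dkeyp-87d1.1 at 4.25 hpf (mean 20.5 CPM), while si:dkey-21a6.5 starts from 30.3 CPM.

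Other members were high in a few embryos and near 0 in the rest. The zinc finger gene znf1050 held 182 CPM (776 counts) in AB embryo 1 of 4.25 hpf, which was 93.7% of the summed CPM of its stage. The next embryo, AB 5, held 7.38 CPM and the other 10 between 0 and 1.19 CPM. At 5.25 hpf AB embryos 4 and 6 held 16 and 21.8 CPM and no other embryo more than 0.294 CPM. No TL embryo exceeded 1.03 CPM at any stage, so every high embryo of znf1050 was AB.

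The gene si:ch211-223a21.3 was also high in AB embryos alone, and in some of them only. At 4.25 hpf the AB embryos held 0.470, 47.0, 79.0, 29.8, 0.891 and 62.8 CPM, while the 6 TL embryos lay between 0.519 and 0.923 CPM. At 5.25 hpf AB embryo 3 held 70.7 CPM and no other embryo more than 0.401 CPM. AB embryos 1 and 5 of 4.25 hpf thus lay within the TL range or just below it. In the strain test of the 12 embryos of 4.25 hpf the gene did not pass the filter on low counts. Where it passed in a fit of single embryos, it did so through the high AB embryos alone, so that it had to differ. The difference was -5.60 with a replicate block (log2, SE 0.96, adjusted p 0.000551, edgeR quasi-likelihood test), -5.62 in one fit of all embryos (adjusted p 0.000687) and -5.84 on sums of the 3 embryos of a replicate (adjusted p 0.00232).

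ENSDARG00000100614, without a symbol, was high in some embryos of replicate 2 and in none of replicate 1. At 3.25 hpf it had 0 counts in the 6 embryos of replicate 1, which allows up to 0.0686 CPM, and 11.3, 0.183 and 23.1 CPM in AB embryos 4, 5 and 6 with 17.4, 0.234 and 14.6 CPM in TL embryos 4, 5 and 6. The mean of replicate 2, 11.1 CPM, was at least 162-fold higher than that limit. Replicate 1 summed to 3, 0, 3 and 0 counts over the 4 stages, against 150, 480, 399 and 50 counts in replicate 2. High and low embryos stood side by side within replicate 2 in both strains.

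The gene btr20 belongs to the bloodthirsty-related family of tripartite-motif proteins and had means of 7.71, 17.5, 9.78 and 5.20 CPM. At 3.25 hpf the TL embryos held 16.3, 29.7, 35.3, 22.4, 25.5 and 21.1 CPM and the AB embryos 15.7, 3.10, 1.11, 36.1, 0.915 and 3.04 CPM. AB embryo 4 was the highest of all, AB embryo 1 lay just below the TL range, and the other 4 AB embryos were far below it. The gene zgc:194207, a long non-coding RNA in RefSeq, had means of 5.84, 15.3, 6.14 and 1.32 CPM. Its mean at 3.25 hpf rested on TL embryos 4 and 6, at 58.4 and 98.1 CPM, while the other TL embryos held 1.09 to 11.9 CPM and the AB embryos 0 to 2.56 CPM.

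**Figure D2:**
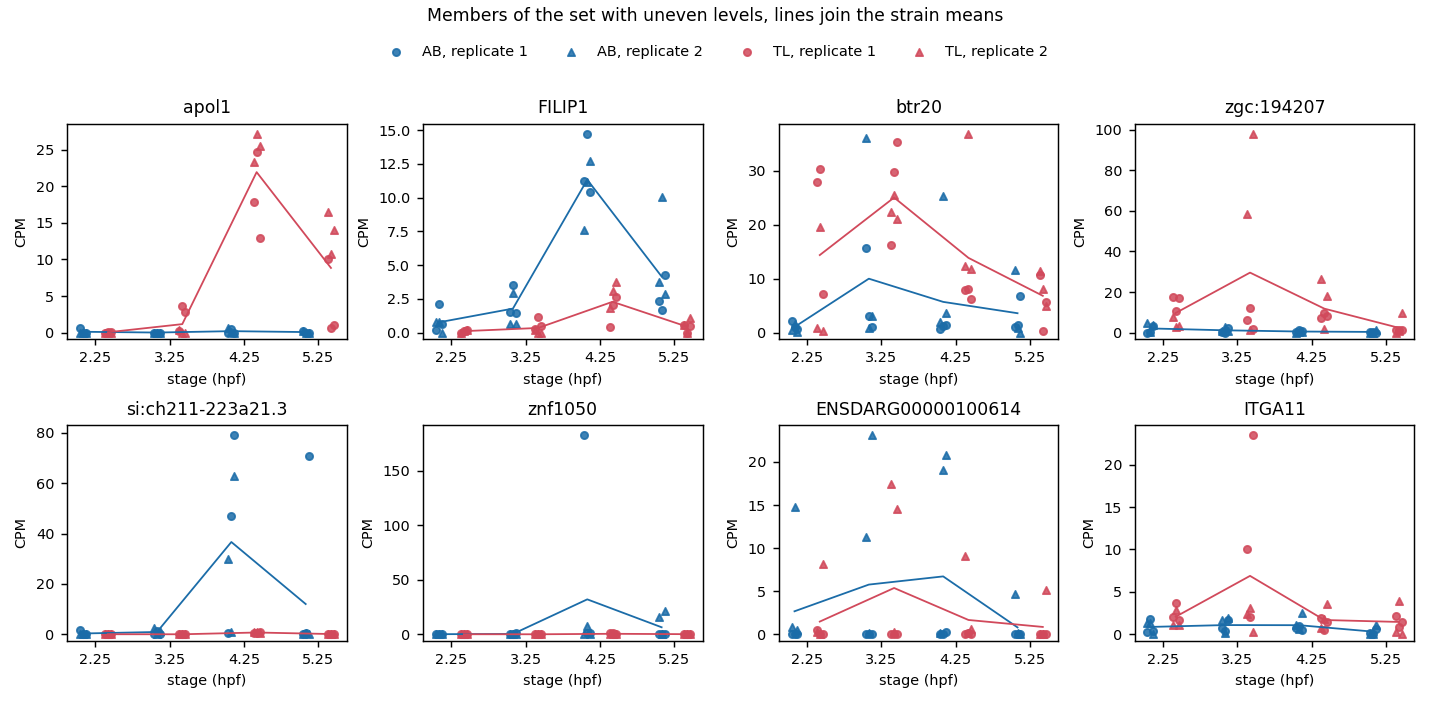
CPM (y axis) of 8 members with uneven or strain-linked levels in every embryo by stage (x axis, hpf), AB and TL in separate colours, each point 1 embryo. In znf1050 a single AB embryo stands at 182 CPM, si:ch211-223a21.3 is high in AB embryos only, and apol1 in TL embryos only.

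Of the members that peaked at 3.25 hpf, 4 code for proteins known mainly from later tissues. They were col1a1a, a chain of type I collagen, COL10A1, the chain of type X collagen, ITGA11, an integrin subunit that binds collagen, and CRIP2, a LIM-domain protein found in smooth muscle and heart. They were put together here after their values were seen. Their stage means peaked at 4.84, 3.16, 3.98 and 3.40 CPM. AB embryo 4 of 3.25 hpf held 37.8 CPM of col1a1a, 17.2 CPM of COL10A1 and 25.4 CPM of CRIP2, which was 65.0%, 45.4% and 62.3% of the summed CPM of the stage. The next highest embryos held 5.64, 8.42 and 5.47 CPM of these 3 genes. ITGA11 was different, with 23.5 and 10.1 CPM in TL embryos 3 and 1 and at most 3.13 CPM in the other 10.

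AB embryo 4 of 3.25 hpf also held the highest level of the uncharacterised gene si:ch73-46n24.6 (10.5 CPM) and of btr20 (36.1 CPM). A list of connective tissue genes was summed with members left out, using the 11 of 21 symbols that matched a single ID outside the set. It came to 32.5 CPM in that embryo. The other 11 embryos ran from 8.67 to 27.1 CPM, with a median of 18.6 CPM over all 12. It was the highest embryo for 4 of the 11 genes, among them COL1A2 (6.72 CPM against 2.24 CPM in the next) and SPARC (6.09 CPM against 1.13 CPM). For the other 7 it was not, among them PDGFRA (9.03 CPM against 22.04 CPM in the highest), COL5A1 (5.04 against 9.50 CPM) and COL6A2 (1.05 against 5.35 CPM), and 2 of the 11 genes were at 0 in it. A list of adult epidermis genes summed to 34.8 CPM there against 30.4 CPM in the next embryo (range 8.72 to 34.8 CPM), and it was the highest embryo for 1 of the 10 genes, krt91. For muscle and blood lists it was the highest embryo for 0 genes. The 9 muscle genes summed to 4.62 CPM in it (range over 12 embryos 2.34 to 7.81) and the 9 blood genes to 2.1 CPM (range 0 to 3.29), with 7 of the blood genes at 0, alas2 at 0.840 CPM and epb41b at 1.26 CPM. What part these levels had in the results for the collagen genes was not tested.

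The members' dependence on single embryos was counted by leaving out each of the 48 in turn. The rule then found 17 to 27 genes. Of the 20 members, 7 were found every time: si:dkeyp-87d1.1, si:ch211-223a21.3, apol1, FILIP1, dre-mir-430b-6, ENSDARG00000117210 and VSX1. The other 13 dropped out at least once. Without AB embryo 4 of 3.25 hpf 6 members were lost (btr20, ENSDARG00000100614, col1a1a, si:ch73-46n24.6, CRIP2 and COL10A1). Without AB embryo 1 of 4.25 hpf znf1050 and si:dkey-235h8.1 were lost.

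**Figure D3:**
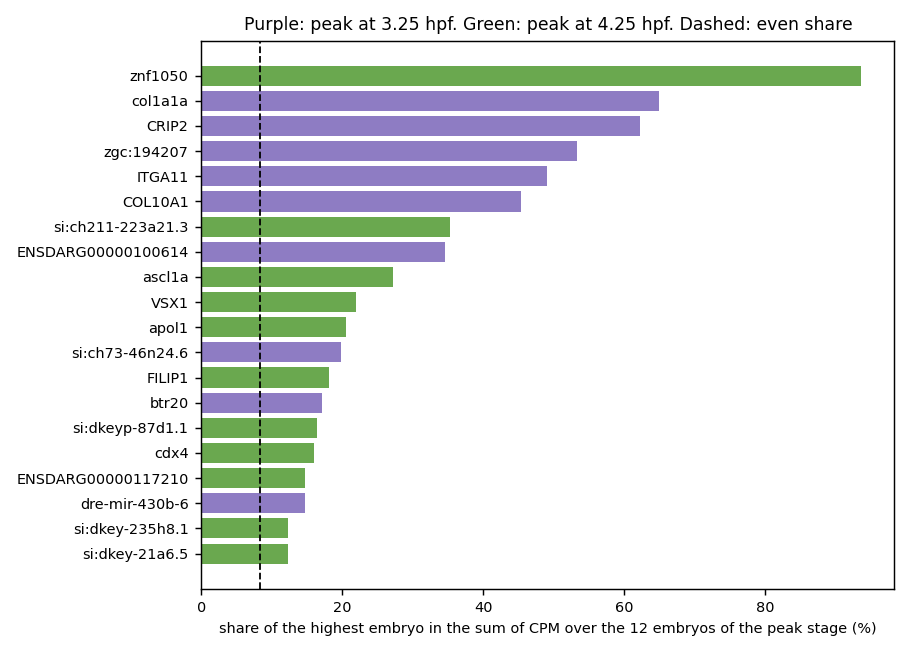
Share of the summed CPM of the peak stage that came from its highest embryo (x axis, percent) for each of the 20 members (y axis), with the 8.33% that 12 equal embryos would each hold. The share is 93.7% for znf1050 and 65.0% for col1a1a.

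The set's edges were not sharp. Just outside the level threshold lay ENSDARG00000116211 at 2.98 CPM and mbpa at 2.80 CPM, and just inside COL10A1 at 3.16 CPM and cdx4 at 3.23 CPM. On the rise, si:dkey-241l7.3 at 1.99 times and TFAP2E at 1.98 times were outside and ITGA11 at 2.03 times inside. On the fall, LPAR3 at 0.619 and batf2 at 0.639 of the peak were outside and si:dkey-235h8.1 at 0.585 inside.

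Genes outside the set with the most similar pattern were sought over the 8 means of strain and stage, by Pearson correlation of log2(CPM + 0.5) among 11116 genes, as a description. The means share embryos and library pools. For si:dkeyp-87d1.1 they were GADD45G, which codes for a stress and growth arrest protein (r 0.991), an uncharacterised gene (r 0.990) and IST1 (r 0.986). From 3.25 hpf on, GADD45G stood at 6.30, 35.7 and 24.0 CPM in AB and at 1.74, 26.3 and 16.1 CPM in TL. For si:dkey-21a6.5 they were PAQR3 (r 0.984) and DDX1 (r 0.967), and for si:ch211-223a21.3 ME3 (r 0.959), si:dkey-165e24.1 (r 0.951) and zgc:77486 (r 0.950). The correlation does not weigh the size of a change. In AB, IST1 went from 146 CPM at 2.25 hpf to 197 CPM at 4.25 hpf, and ME3 from 74.5 to 100 CPM.

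The strains were compared within each stage by edgeR's quasi-likelihood test over all genes with Benjamini-Hochberg adjustment. The rule did not use this difference, but a gene high in 1 strain alone could enter through the mean of both. The member counts are therefore not read against the shares over all genes. A member could be tested only where enough embryos passed the filter on low counts. At 4.25 hpf apol1 and zgc:194207 passed it through TL alone, so that they had to differ. At 4.25 hpf 14 of the 20 were tested, 2 were called higher in TL and 3 lower, where 10.2% of all 11945 genes tested were called higher and 10.2% lower. At 3.25 hpf 10 were tested, with 2 higher and 1 lower in TL against a background of 7.20% and 8.46%. At 2.25 hpf 5 were tested, with 2 higher and 0 lower against 8.18% and 9.64%. At 5.25 hpf 6 were tested and 0 were called, where 10.7% of all genes tested were called in either direction, with 1 at an unadjusted p under 0.05 and 0 called by DESeq2. These fits had no term for the biological replicate. With a replicate block 11 were tested at 5.25 hpf and 3 called, where 1989 of all 12485 genes tested were called. On sums of the 3 embryos of a replicate 18 were tested and 0 called.

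The smallest p among the members was that of apol1, a gene of the apolipoprotein L family. At 4.25 hpf the TL embryos held 17.9, 24.7, 13.0, 23.4, 27.2 and 25.6 CPM, and the AB embryos 0, 0.461, 0, 0.558, 0.127 and 0 CPM, which were 0 to 3 counts each. The lowest TL embryo was far above the highest AB embryo. The fitted difference was 6.94 (log2, SE 0.52, adjusted p 2.14e-07, edgeR quasi-likelihood test), a value that depends on how low counts are treated, and the gene passed the filter through TL alone. Within biological replicate 1 the difference was 6.97 and within replicate 2 it was 6.94. At 5.25 hpf TL held 10.1, 0.609, 1.05, 16.5, 10.7 and 14.1 CPM and AB at most 0.232 CPM. The gene did not pass the filter there without the block. With the block it passed through TL alone, so that it had to differ. The difference was then 6.76 (adjusted p 0.000210, edgeR quasi-likelihood test). On sums of the 3 embryos of a replicate it was 6.98 and not called (adjusted p 0.0608). The transient course of apol1 was thus one of TL embryos.

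FILIP1, which codes for a protein that binds filamin, an actin cross-linker, went the other way. At 4.25 hpf the AB embryos held 11.3, 14.8, 10.4, 7.62, 11.2 and 12.7 CPM and the TL embryos 0.389, 2.06, 2.64, 1.81, 3.08 and 3.72 CPM. The groups did not overlap, and the difference was -2.29 (log2, SE 0.39, adjusted p 0.000570, edgeR quasi-likelihood test), with -2.93 within replicate 1 and -1.86 within replicate 2. At 5.25 hpf AB ran from 1.70 to 10.03 CPM and TL from 0 to 1.06 CPM, again without overlap. The gene did not pass the filter there in the fit without the block. With the block it passed through the AB embryos, where it was high, so that it had to differ. The difference was then -3.13 (adjusted p 0.00706, edgeR quasi-likelihood test). On sums of 3 embryos it was -3.26 and not called (adjusted p 0.107). A pair of IDs carries the symbol FILIP1, as for ITGA11, CRIP2 and COL10A1, so reads of close copies could have been shared.

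The non-coding gene zgc:194207 was higher in TL at 3 stages. At 4.25 hpf TL held 7.0, 9.44, 8.40, 26.5, 1.54 and 17.8 CPM and AB 0.470, 1.15, 0.792, 0, 0.382 and 0.240 CPM. All TL embryos lay above all AB embryos, with a difference of 4.58 (log2, SE 0.67, adjusted p 0.000177, edgeR quasi-likelihood test), and of 3.32 within replicate 1 and 5.98 within replicate 2. No AB embryo had more than 6 counts, so the gene passed the filter through TL alone. At 3.25 hpf, where the groups overlapped, it was 4.78 (SE 1.07, adjusted p 0.00596), and was called within replicate 2 (5.53, adjusted p 0.0308) and not within replicate 1 (2.7, adjusted p 0.150). At 2.25 hpf it was 2.29 (SE 0.77, adjusted p 0.0496), with 3.81 in replicate 1 alone and 0.57 in replicate 2 alone, and the call was lost with the replicate block (adjusted p 0.0783) and on sums of 3 embryos (adjusted p 0.125).

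The broadly expressed si:dkey-21a6.5 was lower in TL at 3.25 and 4.25 hpf, by modest amounts. At 3.25 hpf AB ran from 33.1 to 45.6 CPM and TL from 15.2 to 29.2 CPM without overlap (log2 difference -0.83, SE 0.17, adjusted p 0.00355, edgeR quasi-likelihood test). At 4.25 hpf, from the values given above, it was -0.60 (SE 0.17, adjusted p 0.0181). Within replicate 1 alone the differences at these stages were -0.53 and -0.43 and within replicate 2 alone -1.18 and -0.83, of which only -1.18 at 3.25 hpf was called (adjusted p 0.0170). On sums of 3 embryos neither was called (-0.87, adjusted p 0.0784, and -0.62, adjusted p 0.186). At 2.25 hpf the difference of -0.45 was not called (adjusted p 0.119), and at 5.25 hpf it was -0.13 (adjusted p 0.823).

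The other calls were on less even genes. At 2.25 hpf btr20 held 27.9, 30.4, 7.11, 0.884, 19.6 and 0.320 CPM in TL and 0.151 to 2.21 CPM in AB. TL embryos 4 and 6 fell within the AB range and the other 4 lay above it, with a difference of 3.80 (log2, SE 0.86, adjusted p 0.00582, edgeR quasi-likelihood test), which was 4.09 within replicate 1 and could not be tested within replicate 2. At 3.25 hpf its difference of 1.37 was not called (adjusted p 0.190), but without AB embryo 4 it was 2.43 (adjusted p 0.00887). At 4.25 hpf the difference of btr20, 1.23, was not called (adjusted p 0.270). It was called within replicate 1 (2.75, adjusted p 0.00113) and not within replicate 2 (0.93, adjusted p 0.545). ITGA11 at 3.25 hpf was higher in TL by 2.61 (SE 0.77, adjusted p 0.0299), with 3.60 in replicate 1 alone and 0.68 in replicate 2 alone, and was not called with the replicate block (adjusted p 0.0665) or on sums of 3 embryos (adjusted p 0.0846). At 4.25 hpf si:ch73-46n24.6 held 0.924 to 3.69 CPM in AB and 0, 0.343, 0, 1.94, 0.154 and 0 CPM in TL. Only TL embryo 4 reached the AB range, and the difference of -2.47 (SE 0.78, adjusted p 0.0334) was not called without AB embryo 1 (adjusted p 0.0571), on sums of 3 embryos (adjusted p 0.191) or within replicate 2 (-1.80, adjusted p 0.324). Within replicate 1 the gene could not be tested. It passed the filter through AB embryos, with at most TL embryo 4 beside them, so that it had to differ.

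**Figure D4:**
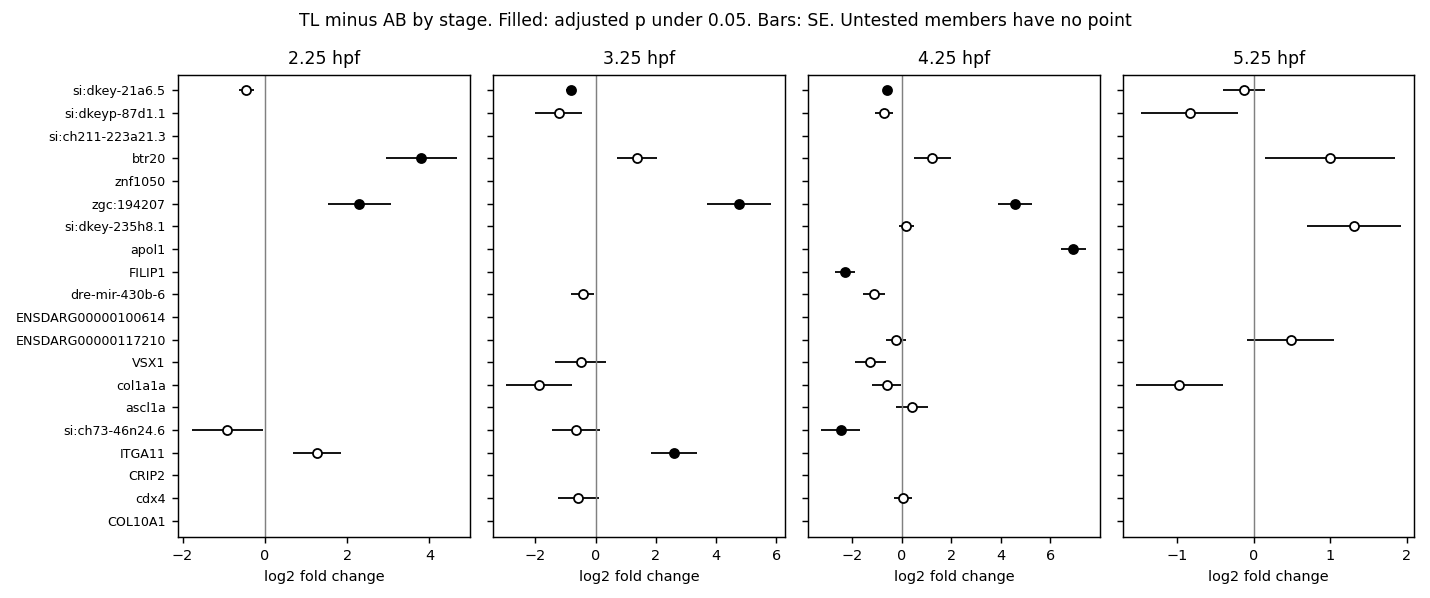
Log2 fold change of TL over AB (x axis) with its standard error for each member tested at each stage (y axis), filled where the adjusted p was under 0.05. At 4.25 hpf apol1 (6.94) and zgc:194207 (4.58) lie on the TL side and FILIP1 (-2.29) on the AB side.

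Whether a strain difference changed between 4.25 and 5.25 hpf was tested directly, in 1 fit of all embryos. Of 19 members tested 0 were called, where 0.00% of 14470 genes were called. None of the 19 had an unadjusted p under 0.05, against 832 of all genes, and DESeq2 called 0 of the 19. For apol1 the change was -0.05 (log2, SE 0.49) and for FILIP1 -0.94 (SE 0.89). A change of the strain difference between these stages is therefore not shown for any member tested.

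The biological replicates were compared within each stage with strain as a covariate, again over all genes. At 3.25 hpf 14 members were tested, with 3 called higher in replicate 2 and 1 lower. Over all 12805 genes tested, 0.695% were called higher and 0.305% lower. Of the members called, COL10A1 and ENSDARG00000100614 passed the filter through replicate 2 alone and ENSDARG00000117210 through replicate 1 alone, so that they had to differ. The rule used the mean of both replicates at each stage, so the member counts are not read against the shares over all genes. At 4.25 hpf 17 were tested with 3 higher and 0 lower (background 3.34% and 2.75%), and at 5.25 hpf 11 were tested with 3 higher and 0 lower (background 6.18% and 6.29%). Of these, COL10A1 at 4.25 hpf passed the filter mainly through replicate 2. At 2.25 hpf 8 were tested and 0 called (background 7.25% in either direction), with 3 at an unadjusted p under 0.05 and 0 called by DESeq2.

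At 3.25 hpf the collagens were among the genes called. COL10A1 held 0 to 0.775 CPM in replicate 1, and 17.2, 8.42 and 5.91 CPM in AB and 3.39, 0.547 and 1.04 CPM in TL in replicate 2. Only TL embryo 5 of replicate 2 fell within the range of replicate 1, and the difference was 4.64 (log2, SE 0.75, adjusted p 0.0208, edgeR quasi-likelihood test). COL10A1 passed the filter through replicate 2 alone. In AB alone its difference was 4.96 and not called (adjusted p 0.5285), where 0 of all 12486 genes tested were called. In TL alone COL10A1 could not be tested. For col1a1a the difference across both strains was 3.66 (SE 0.83, adjusted p 0.0490), which fell to 2.39 and was not called without AB embryo 4 (adjusted p 0.199). ENSDARG00000100614, whose replicate 1 embryos were at 0, passed the filter through replicate 2 alone and was called at adjusted p 0.0404, or 0.0678 without AB embryo 4.

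ENSDARG00000117210 was the member that was lower in replicate 2. At 3.25 hpf replicate 1 held 3.66, 2.71 and 0.334 CPM in AB and 4.40, 4.72 and 4.72 CPM in TL, while replicate 2 held 0.269 CPM in AB embryo 6 and 0 in the other 5. Every embryo of replicate 1 lay above every embryo of replicate 2 (log2 difference -5.26, SE 0.88, adjusted p 0.0211, edgeR quasi-likelihood test), and the gene passed the filter through replicate 1 alone. An hour later all 12 embryos had counts of it, and the difference of -0.40 (SE 0.40) was not called. At 2.25 hpf TL embryos 3 and 5, one of each replicate, held 4.09 and 5.99 CPM and the other 10 at most 0.618 CPM.

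At 4.25 hpf COL10A1 (3.04, SE 0.65, adjusted p 0.0146, edgeR quasi-likelihood test) and col1a1a (1.75, SE 0.46, adjusted p 0.0361) were higher in replicate 2. COL10A1, with a stage mean of 1.60 CPM, passed the filter mainly through replicate 2, where it was high. A difference of COL10A1 was thus favoured in advance. The gene btr20 was also higher (2.24, SE 0.59, adjusted p 0.0354), and not called without AB embryo 1 (adjusted p 0.0750). In both collagens the ranges of the replicates overlapped: col1a1a ran from 0.515 to 2.58 CPM in replicate 1 and from 1.16 to 8.93 CPM in replicate 2.

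At 5.25 hpf 3 members that had peaked at 4.25 hpf were higher in replicate 2. For si:dkey-235h8.1 replicate 1 held 2.50, 0.340 and 1.83 CPM in AB and 3.54, 3.80 and 2.69 CPM in TL, and replicate 2 held 6.28, 4.42 and 9.11 CPM in AB and 15.9, 18 and 16.2 CPM in TL. The replicates did not overlap (log2 difference 2.16, SE 0.37, adjusted p 0.00179, edgeR quasi-likelihood test). For ascl1a replicate 1 held 0 to 0.816 CPM and replicate 2 held 3.02, 9.77 and 0 CPM in AB and 6.26, 10.3 and 0.705 CPM in TL (3.86, SE 1.04, adjusted p 0.0232). AB embryo 6 and TL embryo 6 of replicate 2 fell within the range of replicate 1, and the gene passed the filter through the other embryos of replicate 2. For si:dkey-21a6.5 AB held 32.4, 20.8 and 20.4 CPM in replicate 1 and 55.3, 48.2 and 55.7 CPM in replicate 2, and TL 29.1, 31.0 and 28.1 against 27.3, 50.7 and 41.8 CPM (0.73, SE 0.20, adjusted p 0.0267). In AB all embryos of replicate 2 were higher, and in TL embryo 4 was not.

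The change of the replicate difference from 4.25 to 5.25 hpf was tested for all 20 members and called for 1, si:dkey-21a6.5, toward replicate 2, where 1.26% of 15591 genes were called in that direction and 0.693% in the other. It was 0.93 (log2, SE 0.22, adjusted p 0.0176, edgeR quasi-likelihood test), and was called neither without the filter on low counts nor in AB alone (adjusted p 0.132) or TL alone (adjusted p 0.468). For ascl1a it was 2.95 (SE 1.36, adjusted p 0.278) and for si:dkey-235h8.1 1.89 (SE 0.76, adjusted p 0.196). The summed CPM of the 20 members at 5.25 hpf ran from 46.3 to 67.8 in TL replicate 1 and from 95.6 to 136 in TL replicate 2. In AB the ranges, 50.6 to 140.1 and 109 to 127, overlapped through AB embryo 3, in which si:ch211-223a21.3 alone held 70.7 CPM.

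**Figure D5:**
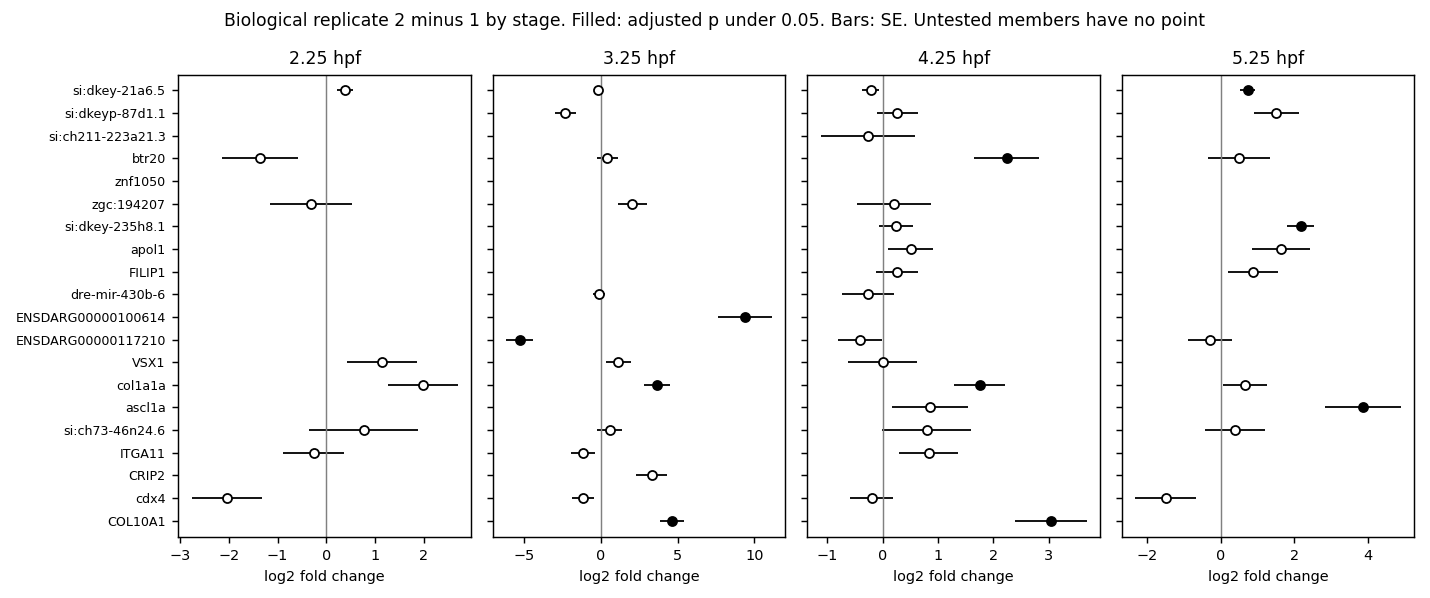
Log2 fold change of biological replicate 2 over 1 (x axis) with its standard error for each member tested at each stage (y axis), filled where the adjusted p was under 0.05. COL10A1 is called at 3.25 hpf (4.64) and 4.25 hpf (3.04), and ENSDARG00000117210 lies on the side of replicate 1 at 3.25 hpf (-5.26).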

How the data were processed

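Single whole embryos, 48 in all, were profiled by CEL-seq2. The authors deposited raw counts for each Ensembl gene ID, in 4 tables of 12 embryos, and no row was a total or unassigned. Per the submitters' processing notes, bcl2fastq 2.19.0.316, STAR 2.7.1a and edgeR 3.26.8 were used. Their settings, the build, the gene models, strandedness and the handling of molecular identifiers are not given in the sources used here, so counts may include copies of a molecule, and limits given for 0 counts (3 counts of the total) cover counting error only. Coordinates and sequences are not used here. Symbols were matched for 29201 of 32520 IDs.

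CPM was computed from the counts without ENSDARG00000080337, because its share of a library varied. Tests used the counts with that ID: filterByExpr, TMM and the quasi-likelihood test of edgeR 4.0.16 in R 4.3.3, with Benjamini-Hochberg adjustment over all genes tested and calls at an adjusted p under 0.05. Strain tests had no covariate, replicate tests had strain. DESeq2 1.42.0, other scalings, no filter, the replicate block, sums of the 3 embryos of each strain, stage and replicate, and fits without a replicate were alternatives.

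The members, the lists and the rule for named genes were chosen with earlier results of these data known. Named were the 12 members of highest peak, members on a list, members called between strains or replicates, and genes next to a threshold; others were named for their role. 1 gene of similar pattern is not reported here. Stage medians, the leaving out of single embryos, and the connective tissue, muscle, blood and epidermis lists were added after values were seen.

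The replicate number pairs the strains, since the labels tie it to sequencing runs. Across genes the replicate differences of AB and TL correlated with r of 0.32, 0.24, 0.18 and 0.57 at the 4 stages. TMM moved levels at 5.25 hpf relative to 4.25 hpf by 0.16 on the log2 scale.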

Additional observations from a re-analysis of the deposited data

Results flagged for a closer look

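Within groups of 6 embryos, 7 of 40 sets of values (each member at its peak stage, in each strain) had 1 embryo far from the others by Dixon's criterion. Chance gives about 1 in 20 in values not used for a choice, but the members were chosen by their means at these stages, so the count is not read against that rate. znf1050 was at 182 CPM in AB embryo 1 of 4.25 hpf, against 7.38 CPM in the next AB embryo. In AB at 3.25 hpf, embryo 4 stood apart for col1a1a (37.8 CPM, next 3.22) and CRIP2 (25.4 CPM, next 1.46). In AB at 4.25 hpf, embryo 4 stood apart for ascl1a (15.8 CPM, next 3.31). In TL at 3.25 hpf, embryo 6 stood apart for CRIP2 (5.47 CPM, next 2.1) and embryo 4 for COL10A1 (3.39 CPM, next 1.04). In TL at 4.25 hpf, embryo 2 stood apart for cdx4 (6.18 CPM, next 3.38).

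A change of the difference between biological replicates from 4.25 to 5.25 hpf was called for si:dkey-21a6.5, by 0.93 on the log2 scale (SE 0.22, adjusted p 0.0176, edgeR quasi-likelihood test of the change itself). By the same test it was not called in AB alone (adjusted p 0.132), in TL alone (adjusted p 0.468) or without the filter on low counts (adjusted p 0.0511). Of all 15591 genes tested, 1.26% were called in that direction.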

How the results depend on the processing

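Of 159 values of single genes under an alternative, 125 were called again with the same sign, 34 were not called and 0 reversed. Of 21 gene and contrast pairs, 6 were called under every alternative in which the gene could be tested. Among these 6, ascl1a between replicates could not be tested in AB only or in TL only. ENSDARG00000117210 between replicates could not be tested in AB only, and btr20 between strains could not be tested without replicate 1. Of 86 counts, 54 were within 1.5 times.

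The rule found 20 genes, and 14 with ENSDARG00000080337 in the totals, 43 in AB only, 38 in TL only, 33 with stage medians, 11 with TMM library sizes, and 54 to 60 without a replicate. Of these genes 12, 16, 9, 11 and 11, in the same order, were among the 20 members. Without a replicate, 12 of the 54 and 13 of the 60 were. The members that did not meet the rule with TMM library sizes included cdx4, ascl1a, si:dkey-21a6.5 and col1a1a. Strain calls of members were 2 at 2.25 hpf (1 by DESeq2, 1 to 3 without a replicate), 3 at 3.25 hpf (5 without the filter on low counts, 5 in one fit of all embryos, 1 to 2 without a replicate), 5 at 4.25 hpf (3 to 7 without a replicate) and 0 at 5.25 hpf (1 with ENSDARG00000080337 left out, 4 without the filter, 3 in one fit, 3 with the replicate block, 1 without either replicate). Replicate calls were 0 at 2.25 hpf (2 without the filter), 4 at 3.25 hpf (2 without AB embryo 4, 0 in AB only, 1 in TL only, 7 without the filter), 3 at 4.25 hpf (0 in AB only, 0 in TL only, 1 by DESeq2, 5 without the filter) and 3 at 5.25 hpf (0 in AB only, 8 without the filter). The change of the replicate difference was called for 1 member (0 in AB only, 0 in TL only, 0 without the filter). Fits of 1 strain or 1 replicate hold fewer embryos. The cause of these shifts was not tested for any alternative.

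The replicate block, besides the changes given with the results, added cdx4 at 2.25 hpf (-2.33, adjusted p 0.0308), COL10A1 at 3.25 hpf (-2.41, adjusted p 0.0293), btr20 at 4.25 hpf (1.67, adjusted p 0.0460) and si:dkey-235h8.1 at 5.25 hpf (1.27, adjusted p 0.0251) to the strain calls of edgeR's quasi-likelihood test. None of these 4 was called on sums of 3 embryos (adjusted p 0.284, 0.355, 0.585 and 0.563 in the same order), which called 2, 2, 4 and 0 members at the 4 stages.

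Depth limits the members near 3 CPM, where 1 count is worth up to 0.305 CPM.

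Over all alternatives the adjusted p ran from 0.0298 to 0.679 for zgc:194207 between strains at 2.25 hpf and from 0.000250 to 0.150 at 3.25 hpf, from 0.00393 to 0.741 for ITGA11, from 6.82e-05 to 0.195 and from 0.00395 to 0.186 for si:dkey-21a6.5 at 3.25 and 4.25 hpf, and from 0.0168 to 0.324 for si:ch73-46n24.6 (edgeR's quasi-likelihood test or DESeq2). Between replicates it ran from 2.74e-11 to 0.0678 for ENSDARG00000100614 and from 1.75e-05 to 0.762 for col1a1a at 3.25 hpf, from 1.54e-09 to 0.108 for btr20 at 4.25 hpf, and from 0.00191 to 0.468 for the change in si:dkey-21a6.5. For COL10A1 it ran from 1.495e-06 to 0.5285 at 3.25 hpf and from 0.0007319 to 0.06645 at 4.25 hpf. For col1a1a at 4.25 hpf it ran from 0.006308 to 0.1391. At 5.25 hpf it ran from 0.005543 to 0.5014 for si:dkey-21a6.5 and from 1.392e-07 to 0.1945 for si:dkey-235h8.1. Alternatives in which a gene had no adjusted p are not part of its range.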
